A study of Mus musculus with 12 samples.

Results

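The interaction of busulfan and L.J. in mouse liver was measured as a difference of differences on log2(FPKM + 1). FPKM, the unit of the table, is a fragment count divided by transcript length and library size. The L.J. difference among mice given busulfan (busulfan plus L.J. minus busulfan) was taken first, and the L.J. difference among mice without busulfan (L.J. minus control) was subtracted from it. All 12 libraries of the study enter it, 3 in each of 4 groups, and 10786 of the 21004 genes in the table were measured, those that reached 1 FPKM in 3 libraries or more. The groups were busulfan plus L.J. at 10 mg/kg, busulfan alone, L.J. alone at 10 mg/kg, and control. All were livers of ICR mice, an outbred strain, aged 8 weeks, profiled by sequencing of total RNA. The labels spell out neither what L.J. stands for, nor the dose of busulfan, nor what the control animals received.

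Busulfan is an alkylating drug that crosslinks DNA and is used to deplete blood-forming and germ-line stem cells. An interaction of 0 means that L.J. went with the same log2 difference in both settings. A negative value means that the gene lay lower with both agents than the sum of the single differences would give, and a positive value that it lay higher. Liver RNA is dominated by secreted proteins, and large parts of it follow hormones and cytokines. Growth hormone acts through STAT5 and sets the male and female patterns of mouse liver, interleukin-6 acts through STAT3 and switches on the acute-phase proteins, and interferons raise antiviral and antigen presentation genes.

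The livers carried their tissue's transcripts in every library, with all 22 hepatocyte markers of the table above 0 in each. One group was uneven in a way that touches the results. The major urinary protein genes (Mup), abundant pheromone carriers of male liver, held 16.8% to 36.7% of all FPKM in busulfan plus L.J., 19.4% to 30.8% in busulfan, 1.36%, 23.9% and 0.0956% in L.J. replicates 1, 2 and 3, and 11.7% to 35.4% in control. L.J. replicates 1 and 3 stood apart from L.J. replicate 2 and from the other libraries, and values without them are given below. FPKM are relative values within a library, and their sum ran from 514647 to 665060. The 4 Y-linked genes of the table were present in all 12 libraries. Depth is unknown, and nothing in the labels says that the replicates were separate animals, so the tests rest on a spread between samples that may be technical. In a piece of liver, fewer cells of a type and less RNA per cell cannot be told apart.

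No gene passed the test of the interaction. In limma with Benjamini-Hochberg adjustment, 0 of 10786 genes (0%) reached an adjusted p of 0.05, and the smallest adjusted p was 0.324, for Ndrg1. At an unadjusted p under 0.05 there were 705 genes (6.54%), of which 111 lay higher (1.03% of the genes tested) and 594 lower (5.51%). The interaction was below 0 in 8373 genes (77.6%) and above 0 in 2413 (22.4%). Its median over all genes was -0.17, beside a median L.J. difference of 0.00 with busulfan and 0.17 without busulfan. The median SE of 1 gene's interaction was 0.23, larger than that shift.

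The lean towards negative values moved with the scaling of the libraries. When each library was scaled to the same median, 48.4% of the genes lay below 0 and the median was 0.01. With the Mup genes left out and the rest rescaled, 62.5% lay below 0 and the median was -0.07. At an unadjusted p under 0.05, the genes higher and lower then numbered 359 and 319 under median scaling and 220 and 435 without the Mup genes. Small interactions are read below against the median of all genes.

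**Figure D1:**
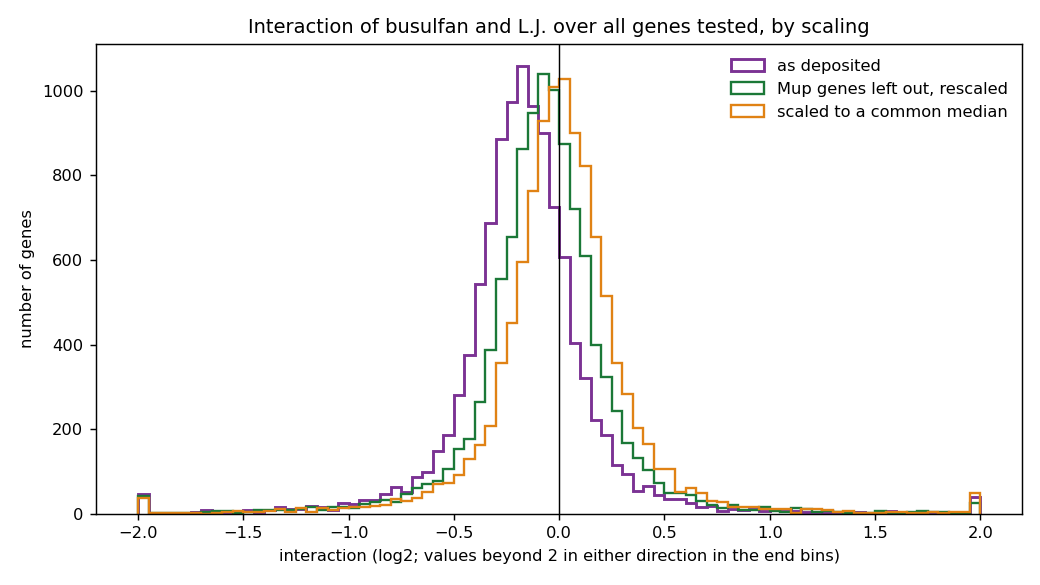
Histogram of the interaction (x axis, log2) over all genes tested (y axis, number of genes) for FPKM as deposited, without the Mup genes, and scaled to a common median. The peak lies left of 0 as deposited, with a median of -0.17, and near 0 under median scaling, with a median of 0.01.

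As deposited, the size of the L.J. difference also stood apart between the settings. Its median absolute value was 0.10 with busulfan and 0.21 without busulfan, and the absolute difference was larger without busulfan in 7815 genes and larger with it in 2971. These values carry the scaling of the libraries, since the median signed L.J. difference was 0.00 with busulfan and 0.17 without it. The median FPKM of the genes tested was 7.92, 6.5 and 7.57 in L.J. replicates 1, 2 and 3 and 5.76 to 7.07 in the other groups. No median-scaled counterpart of these sizes is given here. The spread inside the groups was uneven too, with a median within-group SD on the log2 scale of 0.16 in busulfan plus L.J., 0.14 in busulfan, 0.21 in L.J. and 0.19 in control. The 3 L.J. libraries lay above all 9 others in 461 genes (4.27%) and below them in 88 (0.816%), whereas those of busulfan plus L.J. did so in 28 and 57, those of busulfan in 11 and 20 and those of control in 23 and 132. Under median scaling the L.J. libraries stood above in 219 genes and below in 310.

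In the absence of calls, the text describes the 20 genes ranked first by p, and none of them is a call. Of these, 15 had a negative and 5 a positive interaction. The L.J. libraries lay above all 9 others in 11 of the 20 genes (all genes 4.27%) and below them in 4 (all genes 0.816%). The absolute L.J. difference was larger without busulfan in 16 genes (7815 of all 10786), and its sign was opposite in both settings in 14. Ranking by the interaction p in these same libraries favours such genes, so the counts describe the picked genes and are no further evidence. Apart from Ndrg1, all had the same limma adjusted p of 0.709 (Benjamini-Hochberg). The genes with the most negative interactions were Sult3a1, Saa2 and Saa1, a female-biased sulfotransferase and a pair of acute-phase apolipoproteins, and their promoters are shown because these were the widest interactions of the 20. They come from the RefSeq table for GRCm38.p6 (coordinates of mm10), run from 250 bases before a transcript start listed there to 50 after it, and have matches to 2 motifs in capitals. TTCNNNGAA is the palindrome that STAT factors bind, and TTNNGNAA, searched on both strands, is a core that C/EBP factors bind.

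Sult3a1 promoter (chr10:33857472-33857771, + strand): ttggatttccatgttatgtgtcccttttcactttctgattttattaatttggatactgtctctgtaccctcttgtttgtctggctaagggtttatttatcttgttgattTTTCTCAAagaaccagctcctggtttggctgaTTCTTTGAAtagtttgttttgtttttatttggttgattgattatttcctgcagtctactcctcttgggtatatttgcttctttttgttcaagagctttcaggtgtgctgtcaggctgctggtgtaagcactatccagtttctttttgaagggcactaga
Saa2 promoter (chr7:46751583-46751882, + strand): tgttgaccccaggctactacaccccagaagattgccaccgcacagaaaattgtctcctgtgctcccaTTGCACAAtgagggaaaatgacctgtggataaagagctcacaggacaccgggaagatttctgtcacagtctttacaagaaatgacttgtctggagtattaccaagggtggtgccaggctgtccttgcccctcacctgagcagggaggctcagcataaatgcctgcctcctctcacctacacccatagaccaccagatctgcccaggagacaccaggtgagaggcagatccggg
Saa1 promoter (chr7:46742931-46743230, - strand): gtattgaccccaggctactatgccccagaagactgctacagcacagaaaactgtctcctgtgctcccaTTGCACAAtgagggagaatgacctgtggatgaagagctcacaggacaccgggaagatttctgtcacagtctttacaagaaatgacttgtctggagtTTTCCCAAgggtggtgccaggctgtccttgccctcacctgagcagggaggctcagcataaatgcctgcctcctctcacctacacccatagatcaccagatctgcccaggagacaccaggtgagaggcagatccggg

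The transcript start used for the window is that of the RefSeq gene span in Saa2, whereas in Sult3a1 and Saa1 it lies inside that span. Distances are counted from the transcript start used. The Sult3a1 window held TTCTTTGAA, a match to the STAT palindrome, 109 to 101 bases before the start. Both Saa windows held TTGCACAA, a match to the C/EBP core, 183 to 176 bases before the start in Saa2 and 182 to 175 in Saa1. The C/EBP core was also matched in Sult3a1, by TTTCTCAA at 141 to 134 bases before the start. Saa1 held a further match, TTTCCCAA, at 86 to 79. Of 32851 promoters listed by RefSeq, 8.30% held the first motif and 40.7% the second. In that list 17 of the 20 genes had a promoter, and 3 and 9 of them held the motifs. A gene was counted when any of its listed promoters matched, whereas the shares are per promoter, so counts and shares are not directly comparable. The Saa1 and Saa2 windows were 95.3% identical over 301 aligned columns. A match is a description of these letters and not a binding site.

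Serum amyloid A proteins coat high-density lipoprotein in inflammation and are made by hepatocytes under interleukin-6. Saa1 (chr7:46740497-46743181) read 92.2, 121 and 272 FPKM in busulfan plus L.J., 152, 75.9 and 90.2 in busulfan, 4454, 468 and 4029.8 in L.J. and 79.3, 57.9 and 49.1 in control. Saa2 (chr7:46751833-46754313) read 18.7, 42.1 and 204 FPKM in busulfan plus L.J., 57.5, 35.1 and 69.8 in busulfan, 4327, 343 and 3626 in L.J. and 64.7, 26.6 and 28.5 in control. All 3 L.J. libraries stood above the other 9 in both genes, replicate 2 by much less than replicates 1 and 3, while busulfan plus L.J. overlapped busulfan. The L.J. difference of Saa1 was 0.51 with busulfan and 5.04 without busulfan, an interaction of -4.53 (SE 1.01), and that of Saa2 was 0.07 and 5.54, an interaction of -5.47 (SE 1.35). The genes are near copies, so how reads were split between them is uncertain.

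Sult3a1 is a sulfotransferase whose expression is higher in female than in male mouse liver. It (chr10:33851020-33879475) read 0, 0.22 and 2.14 FPKM in busulfan plus L.J., 0.05, 0.29 and 0.06 in busulfan, 60.2, 55.96 and 901 in L.J. and 0.09, 0.14 and 2.63 in control. The lowest L.J. library was 56.0 FPKM and the highest of the other 9 was 2.63, with most of them below 1. The interaction was -6.00 (SE 1.26), the most negative of all genes tested, and it was -4.64 when only L.J. replicate 2 stood for L.J. Its neighbour Sult3a2, a similar gene whose reads may be shared with it, read 6.31, 21.1 and 370 FPKM in L.J. and between 0 and 1.11 in the other 9 libraries.

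Socs2, a feedback inhibitor of growth hormone signalling and itself a STAT5 target, lay on opposite sides in both settings. It (chr10:95383903-95417321) read 3.62, 8.01 and 3.8 FPKM in busulfan plus L.J., 9.12, 14.5 and 9.62 in busulfan, 25.3, 18.8 and 48.2 in L.J. and 5.63, 12.3 and 8.62 in control. Every busulfan plus L.J. library was below every busulfan library, and every L.J. library was above all 9 others. The L.J. difference was -1.02 with busulfan and 1.64 without it, an interaction of -2.66 (SE 0.52), and -2.08 without L.J. replicates 1 and 3. Serpina7, thyroxine-binding globulin of the blood (chrX:139079249-139085236), read 4.38, 3.36 and 6.93 FPKM in busulfan plus L.J., 8.15, 8.56 and 5.88 in busulfan, 26.2, 16.3 and 48.98 in L.J. and 12.7, 4.73 and 3.37 in control. The L.J. libraries were the 3 highest, and the interaction was -2.60 (SE 0.61).

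Ndrg1, a stress- and hypoxia-responsive cytoplasmic protein, had the smallest p. It (chr15:66929318-66969641) read 10.5, 14.7 and 13.7 FPKM in busulfan plus L.J., 11.7, 9.93 and 10.6 in busulfan, 4.64, 5.82 and 5.42 in L.J. and 12.8, 10.6 and 13.3 in control. All 3 L.J. libraries lay below the other 9, and they lay close together, L.J. replicate 2 included. The L.J. difference was 0.24 with busulfan and -1.07 without busulfan, and the interaction was 1.31 (SE 0.20), with an unadjusted p of 3.01e-05 and a limma adjusted p of 0.324. It was 1.49 under median scaling (limma adjusted p 0.0424) and 1.42 without the Mup genes (limma adjusted p 0.0429), the 1 gene to pass in either, and 1.19 with L.J. replicates 1 and 3 left out.

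Etnppl, which breaks down phosphoethanolamine, and Serpina5, the protein C inhibitor, had the same shape. Etnppl (chr3:130617448-130635750) read 38.7, 38.3 and 28.7 FPKM in busulfan plus L.J., 48.2, 38.7 and 40.8 in busulfan, 13.4, 16.5 and 17.3 in L.J. and 32.1, 41.3 and 41.7 in control. Serpina5 (chr12:104099313-104106138) read 1.57, 2.22 and 1.87 FPKM in busulfan plus L.J., 2.23, 2.32 and 2.13 in busulfan, 0.96, 0.86 and 0.33 in L.J. and 2.39, 2.33 and 2.86 in control. In both the L.J. libraries were the 3 lowest of the 12, and the interactions were 0.96 (SE 0.23) and 0.89 (SE 0.22).

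In Capn8, a calcium-dependent protease, and Clic3, a chloride intracellular channel protein, busulfan plus L.J. was the high group. Capn8 (chr1:182564749-182634456) read 4.18, 2.06 and 6.52 FPKM in busulfan plus L.J., 1.5, 1.17 and 0.84 in busulfan, 0.35, 0.81 and 0.05 in L.J. and 0.93, 1.17 and 1.96 in control. Clic3 (chr2:25456843-25458777) read 6.4, 3.44 and 5.41 FPKM in busulfan plus L.J., 2.45, 1.34 and 0.36 in busulfan, 0.65, 1.62 and 0.23 in L.J. and 1.16, 2.54 and 1.62 in control. The 3 busulfan plus L.J. libraries lay above all 9 others in both genes, and the 3 L.J. libraries lay below all 9 others in Capn8 and overlapped busulfan and control in Clic3. The L.J. difference of Capn8 was 1.19 with busulfan and -0.76 without it, an interaction of 1.95 (SE 0.43), and that of Clic3 was 1.42 and -0.64, an interaction of 2.06 (SE 0.50).

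**Figure D2:**
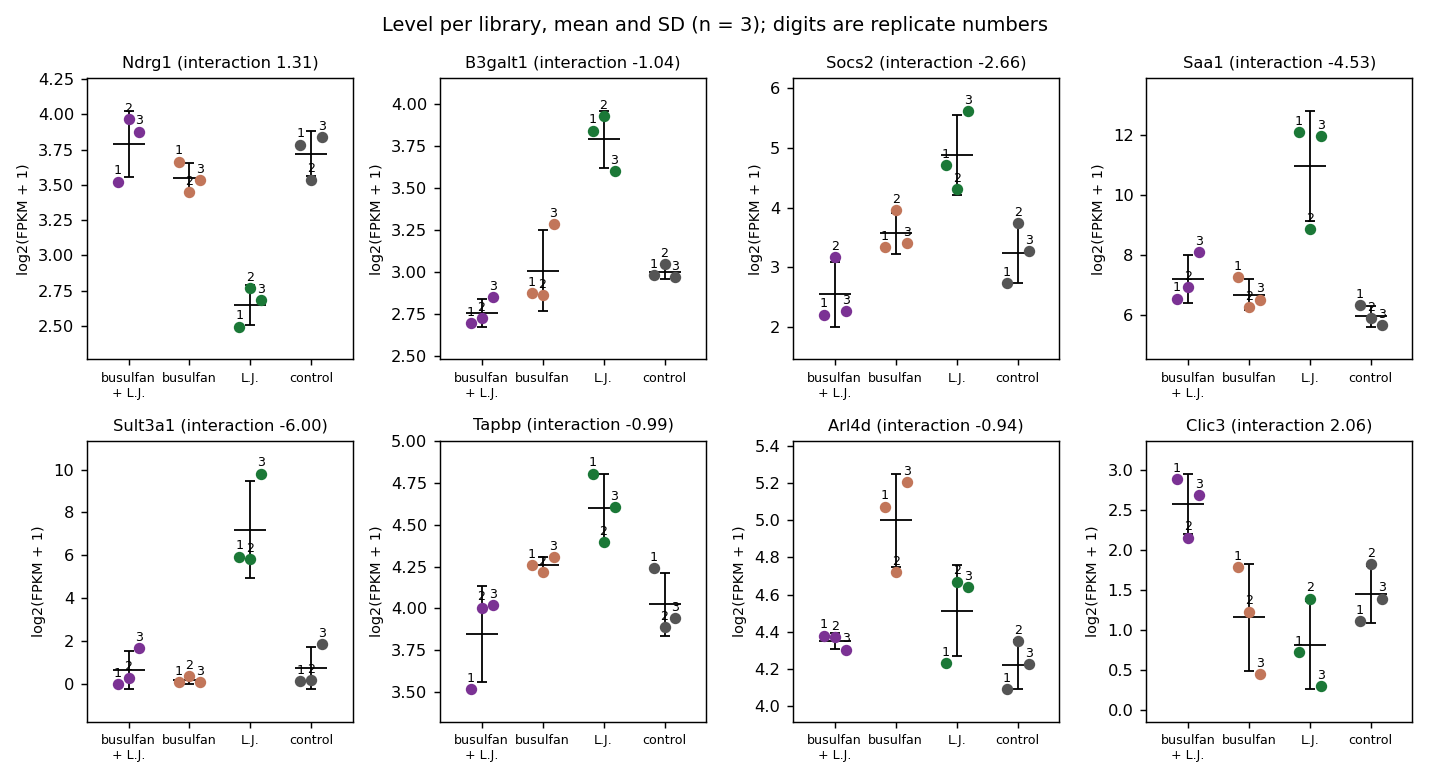
Level of 8 of the 20 genes (y axis, log2(FPKM + 1)) in busulfan plus L.J., busulfan, L.J. and control (x axis). Points are libraries with their replicate numbers, and bars are the mean and SD of 3. L.J. stands alone in Ndrg1, B3galt1, Saa1 and Sult3a1, whereas busulfan is the high group in Arl4d and busulfan plus L.J. in Clic3.

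Psmb10 and Tapbp belong to the loading of peptides on MHC class I, as an immunoproteasome subunit and as tapasin. Tapbp (chr17:33919478-33929290) read 10.4, 15.1 and 15.2 FPKM in busulfan plus L.J., 18.1, 17.6 and 18.8 in busulfan, 26.98, 20.1 and 23.3 in L.J. and 17.9, 13.8 and 14.3 in control. Psmb10 (chr8:105935728-105938392) read 8.48, 8.28 and 9.66 FPKM in busulfan plus L.J., 11.9, 9.76 and 12.9 in busulfan, 16.2, 12.4 and 13.9 in L.J. and 10.9, 8.01 and 9.04 in control. Each busulfan plus L.J. library was below each busulfan library in both genes, and each L.J. library was above each control library. The interactions were -0.99 (SE 0.23) and -0.90 (SE 0.20), and without L.J. replicates 1 and 3 they were -0.79 and -0.73.

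Jchain, which joins antibodies into polymers and marks plasma cells, was present mainly in L.J. It (chr5:88519809-88527897) read 0.3, 0.39 and 1.39 FPKM in busulfan plus L.J., 0.93, 0.81 and 0.47 in busulfan, 24.9, 3.35 and 26.7 in L.J. and 0.82, 0.59 and 0.57 in control. L.J. replicates 1 and 3 stood far above the rest, and L.J. replicate 2 stood above the other 9 by less. The interaction was -3.22 (SE 0.78), and -1.48 with those replicates left out. The summed level of the 10 B cell and plasma cell markers ran from 57.8 to 88.6 FPKM in busulfan plus L.J., 52.3 to 59.2 in busulfan, 65.8 to 128.3 in L.J. and 41.0 to 62.9 in control, and at most 1 of them was listed at 0 in a library. Their part in the Jchain result was not tested.

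Among the remaining genes, Arl4d, a small GTPase, was the one in which busulfan stood apart. It (chr11:101665541-101667832) read 19.8, 19.7 and 18.8 FPKM in busulfan plus L.J., 32.6, 25.4 and 35.9 in busulfan, 17.8, 24.5 and 23.9 in L.J. and 16.04, 19.4 and 17.7 in control. The 3 busulfan libraries lay above all 9 others, and the interaction was -0.94 (SE 0.22). B3galt1, a galactosyltransferase (chr2:67565689-68122882), read 5.47, 5.6 and 6.2 FPKM in busulfan plus L.J., 6.32, 6.27 and 8.74 in busulfan, 13.3, 14.2 and 11.1 in L.J. and 6.88, 7.26 and 6.83 in control. There the L.J. libraries were the 3 highest and the busulfan plus L.J. libraries the 3 lowest of the 12, for an interaction of -1.04 (SE 0.19). Zfp868, a zinc finger protein (chr8:69610654-69625557), read 1.44, 2.07 and 2.81 FPKM in busulfan plus L.J., 7.17, 4.62 and 7.22 in busulfan, 5.48, 4.35 and 8.25 in L.J. and 4.92, 3.18 and 2.39 in control. The busulfan plus L.J. libraries were below the busulfan libraries, L.J. overlapped control, and the interaction was -1.89 (SE 0.37).

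The other 4 genes had smaller interactions of one sign. They were -0.76 for the zinc finger protein Zfp609, -0.78 for the adhesion receptor Adgrl2, -0.78 for the sodium-dependent vitamin transporter Slc5a6 and -0.79 for the tRNA methyltransferase Trmt13. Zfp609 read 3.08, 3.74 and 3.52 FPKM in busulfan plus L.J., 3.52, 3.41 and 3.67 in busulfan, 5.39, 5.31 and 6.09 in L.J. and 2.52, 3.34 and 3.12 in control. The L.J. libraries were the 3 highest in Zfp609, Adgrl2 and Trmt13, and in Slc5a6 they overlapped busulfan. On the plain FPKM scale the difference of differences kept its sign in all 20 genes, and it had another sign than on the log2 scale in 276 of the genes tested.

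Many of the acute-phase proteins are secreted by hepatocytes in inflammation. Over 31 members tested the list had a median interaction of -1.32, beside -0.17 for all genes. The same value was the lowest interaction among the Kupffer cell and macrophage markers, so the lists appear to share that member. The interaction was below 0 in 29 of the 31 members (all genes 77.6%), and 23 had an unadjusted p under 0.05 in that direction (all genes 5.51%), but none passed in limma. The median L.J. difference was 0.07 with busulfan and 1.38 without busulfan. Lcn2, which withholds iron from bacteria, read 3.85, 15.6 and 62.3 FPKM in busulfan plus L.J., 14.7, 7.72 and 8.79 in busulfan, 1409.7, 65.5 and 912 in L.J. and 16.99, 3.56 and 4.33 in control. Steap4, a metalloreductase, read 22.2, 30.5 and 36.7 FPKM in busulfan plus L.J., 29.5, 33.3 and 23.1 in busulfan, 135, 43.9 and 145 in L.J. and 33.2, 24.9 and 26.02 in control. In both genes the L.J. libraries were the 3 highest, with replicate 2 well below replicates 1 and 3, and the interactions were -5.22 (SE 1.55) and -1.70 (SE 0.53). The L.J. libraries stood above all 9 others in 14 of the 31 members (all genes 4.27%).

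The signalling route upstream was more mixed. Of 17 interleukin-6 and STAT3 signalling genes tested, 14 had an interaction below 0, with a median of -0.55. Fgl1, a secreted hepatocyte protein of this route, read 100.2, 124 and 233 FPKM in busulfan plus L.J., 120.2, 159 and 181 in busulfan, 1739.8, 350.2 and 2045 in L.J. and 263, 151 and 117 in control, and its interaction was -2.77 (SE 0.82). Lifr, the receptor of leukemia inhibitory factor, went the other way with 1.01 (SE 0.43). Nfkbia, the inhibitor of NF-kappa B, read 11.5, 11.5 and 15.3 FPKM in busulfan plus L.J., 27.6, 23.4 and 22.3 in busulfan, 39.5, 17.3 and 29.4 in L.J. and 21.1, 26.2 and 19.6 in control. For Nfkbia the busulfan plus L.J. libraries were the 3 lowest of the 12, and L.J. overlapped control, with an interaction of -1.18 (SE 0.34). Complement and coagulation factors, also secreted by the liver, lay nearer to all genes, with a median of -0.22 and 20 of 33 members below 0.

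Metallothioneins bind zinc and copper in the cell and are also acute-phase responsive. Mt2 read 1.88, 7.84 and 50.9 FPKM in busulfan plus L.J., 4.79, 5.91 and 9.21 in busulfan, 1576, 57.4 and 926 in L.J. and 12.04, 6.21 and 6.58 in control. Mt1 read 7.5, 19.7 and 74.1 FPKM in busulfan plus L.J., 14.6, 14.8 and 17.7 in busulfan, 2466, 97.9 and 1343 in L.J. and 29.8, 23.7 and 15 in control. L.J. replicates 1 and 3 were high in both, L.J. replicate 2 lay above the remaining libraries in both, and busulfan plus L.J. overlapped busulfan. Their interactions were -5.06 (SE 1.61) and -4.40 (SE 1.43), whereas the median over 9 metallothionein and zinc transporter genes was -0.28, with 8 below 0. Of 18 iron and hepcidin genes 16 lay below 0 (all genes 77.6%), with a median of -0.48, among them the transferrin receptor Tfrc at -0.67 (SE 0.22). The median was -0.27 without L.J. replicate 1, and -0.00102 with 9 of 18 below 0 without L.J. replicates 1 and 3.

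Female-biased liver genes lay on one side of 0. All 27 female-biased genes tested had an interaction below 0 (all genes 77.6%), with a median of -1.99, and 14 had an unadjusted p under 0.05 in that direction (all genes 5.51%). Their median L.J. difference was 0.11 with busulfan and 1.72 without it. Cyp2b13, a cytochrome P450 of female liver, read 0, 0.48 and 0.79 FPKM in busulfan plus L.J., 0.76, 0.16 and 0.11 in busulfan, 17.9, 2.96 and 47.4 in L.J. and 0.11, 0.59 and 0.31 in control. The L.J. libraries were the 3 highest of the 12 in Cyp2b13, and its interaction was -3.46 (SE 0.93). The table held 35 genes of this list, 27 of which passed the filter, and without the filter 35 lay below 0. Cyp2b13 and the thioesterase Acot3, whose value is the list median, reached 1 FPKM only in L.J. libraries. The filter admitted both through the group in which they were high, so their sign is not independent of it.

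Male-biased genes lay on the other side of 0. Of 33 tested, 29 had an interaction above 0 (all genes 22.4%), with a median of 1.22 and a median L.J. difference of 0.07 with busulfan and -1.25 without it. Elovl3, a fatty acid elongase, read 175, 72.2 and 168 FPKM in busulfan plus L.J., 88.1, 97.1 and 55.1 in busulfan, 4.11, 56.1 and 0.14 in L.J. and 32.9, 82.03 and 178 in control. Slco1a1, an organic anion transporter, read 225, 206 and 217 FPKM in busulfan plus L.J., 195, 336 and 241 in busulfan, 33.6, 218 and 25.1 in L.J. and 198, 310.1 and 306 in control. Only L.J. replicates 1 and 3 were low in these genes, and L.J. replicate 2 lay inside the range of the other groups. Their interactions were 4.24 (SE 1.53) and 1.98 (SE 0.85).

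The 21 Mup genes all had an interaction above 0 (all genes 22.4%), with a median of 4.03, the largest of the lists described. Mup20, known as darcin, a male pheromone, read 4313, 1363 and 3618 FPKM in busulfan plus L.J., 1723, 2209 and 1663 in busulfan, 95.2, 1641 and 13.9 in L.J. and 601, 1589 and 3869.6 in control. Mup3 read 12513, 8200.2 and 9939 FPKM in busulfan plus L.J., 10301, 12376 and 12074 in busulfan, 636, 10565 and 174 in L.J. and 7076, 13242 and 13344 in control. L.J. replicates 1 and 3 were the lowest of the 12 and L.J. replicate 2 lay among the others. The SE was wide, with an interaction of 4.12 (SE 1.82) for Mup20 and of 3.15 for Mup3. The Mup genes are nearly identical, so the share of reads given to each is uncertain. Growth hormone and STAT5 signalling genes, with Socs2 among them, had a median of -0.08 over 15 members, 9 of them below 0, and Igfbp1, a binding protein of insulin-like growth factors, stood at -1.97 (SE 0.80).

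**Figure D3:**
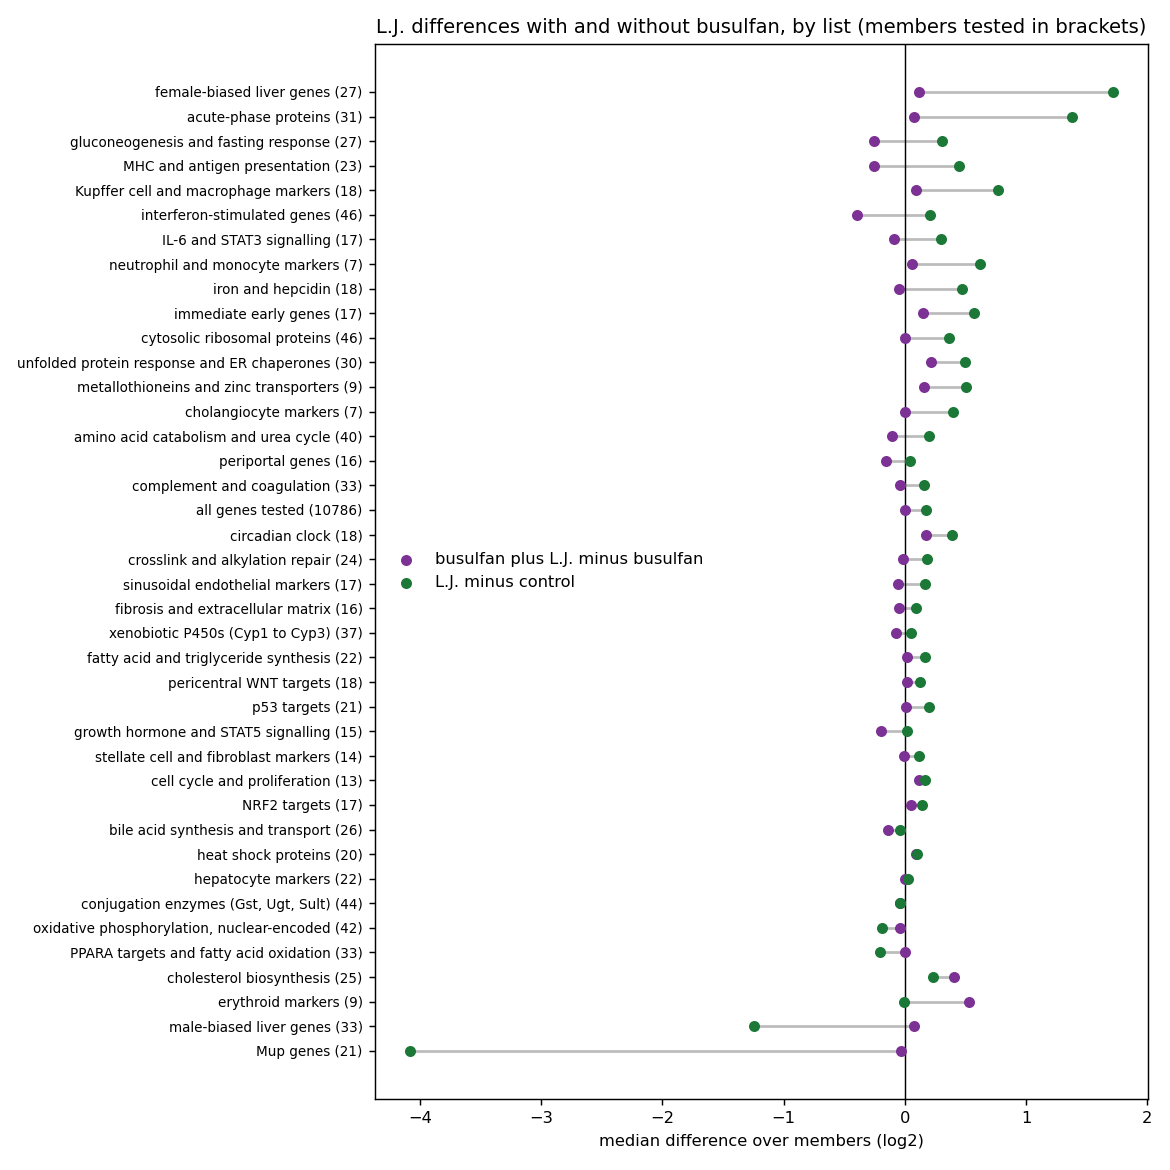
Median L.J. difference (x axis, log2) of each gene list with at least 5 members tested (y axis, members tested in brackets), as busulfan plus L.J. minus busulfan and as L.J. minus control. Among the lists drawn, the pairs of points lie farthest apart for Mup genes, female-biased genes, acute-phase proteins and male-biased genes.

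The interferon-stimulated genes, which restrict viruses, and the MHC genes had list medians of the L.J. difference below 0 with busulfan and above 0 without it. Among 46 interferon-stimulated genes, 43 had an interaction below 0 (all genes 77.6%) with a median of -0.57. The median L.J. difference was -0.39 with busulfan (all genes 0.00) and 0.21 without it (all genes 0.17). The value without busulfan was thus close to that of all genes. Of 23 MHC and antigen presentation genes, 22 lay below 0 with a median of -0.70, and the medians were -0.25 and 0.44. Relative to the busulfan mean, the MHC median was -0.61 in replicate 1 of busulfan plus L.J., whereas replicates 2 and 3 lay near 0 at -0.08 and -0.00145. An unadjusted p under 0.05 in that direction was reached by 9 of the 46 and 8 of the 23 (all genes 5.51%), and no member passed in limma.

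Zbp1, a sensor of viral nucleic acid, read 2.41, 3.77 and 5.11 FPKM in busulfan plus L.J., 4.42, 4.98 and 4.5 in busulfan, 6.62, 8.53 and 7.21 in L.J. and 5.16, 2.18 and 3.11 in control. Gbp2, a guanylate-binding protein, read 1.19, 2.34 and 2.09 FPKM in busulfan plus L.J., 2.64, 2.64 and 3.29 in busulfan, 4.4, 2.52 and 4.53 in L.J. and 3.19, 1.05 and 1.69 in control. L.J. was the high group in Zbp1 without overlap. Zbp1 was the 1 of 46 interferon-stimulated genes with all L.J. libraries above the 9 others (2.17%, all genes 4.27%). In Gbp2 each busulfan plus L.J. library was below each busulfan library. The interactions of Zbp1 and Gbp2 were -1.24 (SE 0.34) and -1.17 (SE 0.37). The class I molecule H2-Q7 read 1.65, 2.18 and 0.85 FPKM in busulfan plus L.J., 3.7, 3.1 and 3.83 in busulfan, 2.76, 4.01 and 6.37 in L.J. and 5.12, 1.8 and 3.49 in control, with each busulfan plus L.J. library below each busulfan library. Its interaction was -1.14 (SE 0.43). The peptide transporter Tap1 had -0.69 (SE 0.25). Without L.J. replicates 1 and 3 the list medians were -0.81 for interferon-stimulated genes and -0.62 for MHC genes.

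Fasting and glucocorticoid genes lay below 0 in 24 of 27 members (all genes 77.6%), with a median of -0.83. Of these, 11 had an unadjusted p under 0.05 in that direction (all genes 5.51%), and none passed in limma. Tsc22d3, the glucocorticoid-induced leucine zipper, read 39.4, 25.7 and 39.8 FPKM in busulfan plus L.J., 73.6, 62.02 and 59.5 in busulfan, 58, 38.7 and 54.1 in L.J. and 32.1, 48.4 and 40.7 in control. Errfi1, a feedback inhibitor of the EGF receptor, read 236, 208 and 168 FPKM in busulfan plus L.J., 439.6, 505 and 464 in busulfan, 549, 207 and 535 in L.J. and 250.02, 411 and 298 in control. In Tsc22d3 busulfan was the high group and busulfan plus L.J. overlapped control, and in Errfi1 all busulfan plus L.J. libraries lay below all busulfan libraries. The interactions were -1.20 (SE 0.30) and -1.54 (SE 0.47). Sik1, a kinase that fasting signals induce, read 9.59, 7.75 and 6.18 FPKM in busulfan plus L.J., 5.06, 4.27 and 4.6 in busulfan, 15.5, 6.09 and 12.5 in L.J. and 1.96, 2.08 and 2.2 in control. The control libraries were the 3 lowest, and its interaction was -1.29 (SE 0.36).

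The circadian clock list, whose genes rise and fall over the day, held 17 of 18 members below 0 with a median of -0.16, that of all genes being -0.17. Per1, a period gene also induced by glucocorticoids, read 1.44, 1.5 and 2.87 FPKM in busulfan plus L.J., 5.36, 4.09 and 4.61 in busulfan, 14.5, 6.04 and 21.4 in L.J. and 0.89, 10.4 and 4.11 in control. The busulfan plus L.J. libraries were below the busulfan libraries, control spread widely, and the interaction was -2.47 (SE 0.78). Noct, a clock-regulated phosphatase, had -1.49 (SE 0.63). The hour at which livers were taken is not in the labels, and its part in these values was not tested.

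Lipid and bile acid pathways had list medians of small size, read beside -0.17 for all genes. Cholesterol biosynthesis genes had an interaction above 0 in 18 of 25 (median 0.19), but the direction turned without control replicate 1 (median -0.13, 14 below 0), without L.J. replicate 1 (median -0.05, 16 below 0) and in the median with library weights (-0.12). PPARA targets and fatty acid oxidation genes lay above 0 in 23 of 33 (median 0.18). Under median scaling 2 of 25 cholesterol biosynthesis genes, 6 of 33 PPARA genes and 10 of 26 bile acid genes lay below 0 (all genes 48.3%). Bile acid synthesis and transport genes were split 13 to 13, with a median of -0.02 and members far out on both sides. Slco1a4, an organic anion transporter, read 5.48, 13.5 and 7.96 FPKM in busulfan plus L.J., 11.2, 13.3 and 13.6 in busulfan, 86.5, 13.5 and 55.1 in L.J. and 9.5, 12.7 and 9.27 in control, with an interaction of -2.40 (SE 0.72). Cyp8b1, the sterol hydroxylase that makes cholic acid, read 143, 124 and 118 FPKM in busulfan plus L.J., 103, 177 and 159 in busulfan, 27.2, 93.7 and 36.2 in L.J. and 214, 134 and 166 in control. L.J. was the low group in Cyp8b1, without overlap, and the interaction was 1.71 (SE 0.53). Acyl-CoA thioesterases of one family went both ways, with Acot1 at 1.64 (SE 0.46) and Acot3 at -1.99 (SE 0.76). Acot3 reached 1 FPKM only in L.J. libraries.

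Drug-metabolising enzymes also had members on both sides. Xenobiotic P450s had a median of -0.13 over 37 members and conjugation enzymes one of 0.10 over 44. Cyp2c39 read 35.6, 61.6 and 35.7 FPKM in busulfan plus L.J., 85.3, 67.4 and 47.9 in busulfan, 354, 72.1 and 461 in L.J. and 109.9, 80.6 and 36.5 in control, and Cyp2c38 and Cyp2c40 also had negative interactions, of -1.92 (SE 0.69) and -3.29 (SE 1.11), though reads of these close relatives may be shared. Sult2a8, a bile acid sulfotransferase, read 303, 237 and 244 FPKM in busulfan plus L.J., 319, 330.01 and 288 in busulfan, 21.8, 218 and 22.5 in L.J. and 265, 325 and 354 in control. L.J. replicates 1 and 3 were far below the rest and L.J. replicate 2 just below it, for an interaction of 2.42 (SE 0.92). Ugt3a1, a glycosyltransferase, had 1.88 (SE 0.69).

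Genes of protein synthesis and respiration had small values. All 46 cytosolic ribosomal protein genes had an interaction below 0 (all genes 77.6%), with a median of -0.34 and 1 member at an unadjusted p under 0.05, Rpl21 at -0.57 (SE 0.21). Under median scaling 42 of 46 lay below 0 and the median was -0.12. Nuclear-encoded oxidative phosphorylation genes had a median of 0.14 and lay above 0 in 37 of 42 members, and under median scaling all 42 did, with a median of 0.36. Unfolded protein response genes lay below 0 in 28 of 30 members (median -0.28), and in 21 of 30 (median -0.07) under median scaling. Xbp1, its transcription factor, read 68.9, 78.9 and 94.9 FPKM in busulfan plus L.J., 72.9, 59.9 and 58.2 in busulfan, 112, 108 and 124 in L.J. and 72.98, 48.8 and 60.7 in control, and Chac1, which degrades glutathione, had -1.15 (SE 0.47).

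The routes tied to an alkylating drug had medians close to that of all genes. The p53 targets had a median of -0.12 with 16 of 21 members below 0, and crosslink and alkylation repair genes one of -0.15 with 21 of 24 below 0. Trp53inp1, a p53-induced stress protein, read 12.1, 11.4 and 15.3 FPKM in busulfan plus L.J., 17.5, 19.5 and 20.7 in busulfan, 33.9, 14.1 and 39.8 in L.J. and 13.8, 18.4 and 15.1 in control, with an interaction of -1.28 (SE 0.42). Fas, a death receptor, had -0.53 (SE 0.19). Amino acid catabolism and urea cycle genes had a median of -0.24 with 32 of 40 members below 0, among them arginase Arg1 at -0.74 (SE 0.25) and tyrosine aminotransferase Tat at -0.80 (SE 0.30).

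Markers of other cells were described for the whole lists. Kupffer cell and macrophage markers had an interaction below 0 in all 18 members, with a median of -0.58, and their summed level ran from 206 to 455 FPKM in busulfan plus L.J., 237 to 346 in busulfan, 257 to 570 in L.J. and 184 to 355 in control, with no marker at 0. Neutrophil and monocyte markers lay below 0 in all 7 members tested, and their sum was 17.3 to 24.1 FPKM in busulfan plus L.J., 16.7 to 19.6 in busulfan, 22.2 to 177 in L.J. and 13.5 to 19.5 in control, with up to 7 of the 17 markers listed at 0 in a library. S100a8, a calcium-binding protein of neutrophils, read 0.61, 0.16 and 3.35 FPKM in busulfan plus L.J., 0.29, 0.3 and 0.31 in busulfan, 48.8, 1.73 and 25.1 in L.J. and 0.68, 0.18 and 0.16 in control. Only L.J. replicates 1 and 3 were clearly above the rest, the same libraries in which acute-phase proteins were high, and the part of these cells in the acute-phase values was not tested. Of the 3 T and NK cell markers tested, the chemokine Ccl5 had -1.24 (SE 0.44) and the protease Gzmb -0.86 (SE 0.31), while the third was on the other side of 0 at 0.29.

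Pancreatic transcripts were highest in busulfan plus L.J. replicate 2. The summed level of 23 pancreatic enzyme transcripts was 49.2, 519 and 15.7 FPKM in the 3 busulfan plus L.J. libraries and 2.25 to 25.9 in the other 9 libraries, so replicate 1 also lay above those 9. Of the 23 transcripts 2 reached the level to be tested, with a median interaction of 2.69. Cela1, an elastase, read 14.8, 31.8 and 14.3 FPKM in busulfan plus L.J., 25.7, 20.1 and 16.2 in busulfan, 4.23, 7.73 and 2.02 in L.J. and 24.3, 13.9 and 16.7 in control. Its L.J. libraries were the 3 lowest of the 12, and the interaction was 1.77 (SE 0.54). Amy2a5, pancreatic amylase, read 7.75, 120.3 and 0.24 FPKM in busulfan plus L.J., 0, 0 and 0 in busulfan, 0, 1.46 and 0 in L.J. and 0, 0.01 and 2.36 in control. Its interaction of 3.61 (SE 1.70) was 1.87 without busulfan plus L.J. replicate 2, and replicate 1 of that group, at 7.75 FPKM, was the next highest library. Erythroid markers had a median of 0.60 over 9 members, 7 of them above 0, and Alas2, the heme synthesis enzyme of red cells, stood at 2.04 (SE 0.86). Their sum reached 2429 FPKM in control replicate 1 and lay between 315 and 1099 in the other libraries. Without control replicate 1 the direction turned, with a median of -0.14 and 7 of 9 members below 0. Sinusoidal endothelial and stellate cell markers had medians of -0.15 and -0.08, and the hepatocyte markers were split 11 to 11.

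**Figure D4:**
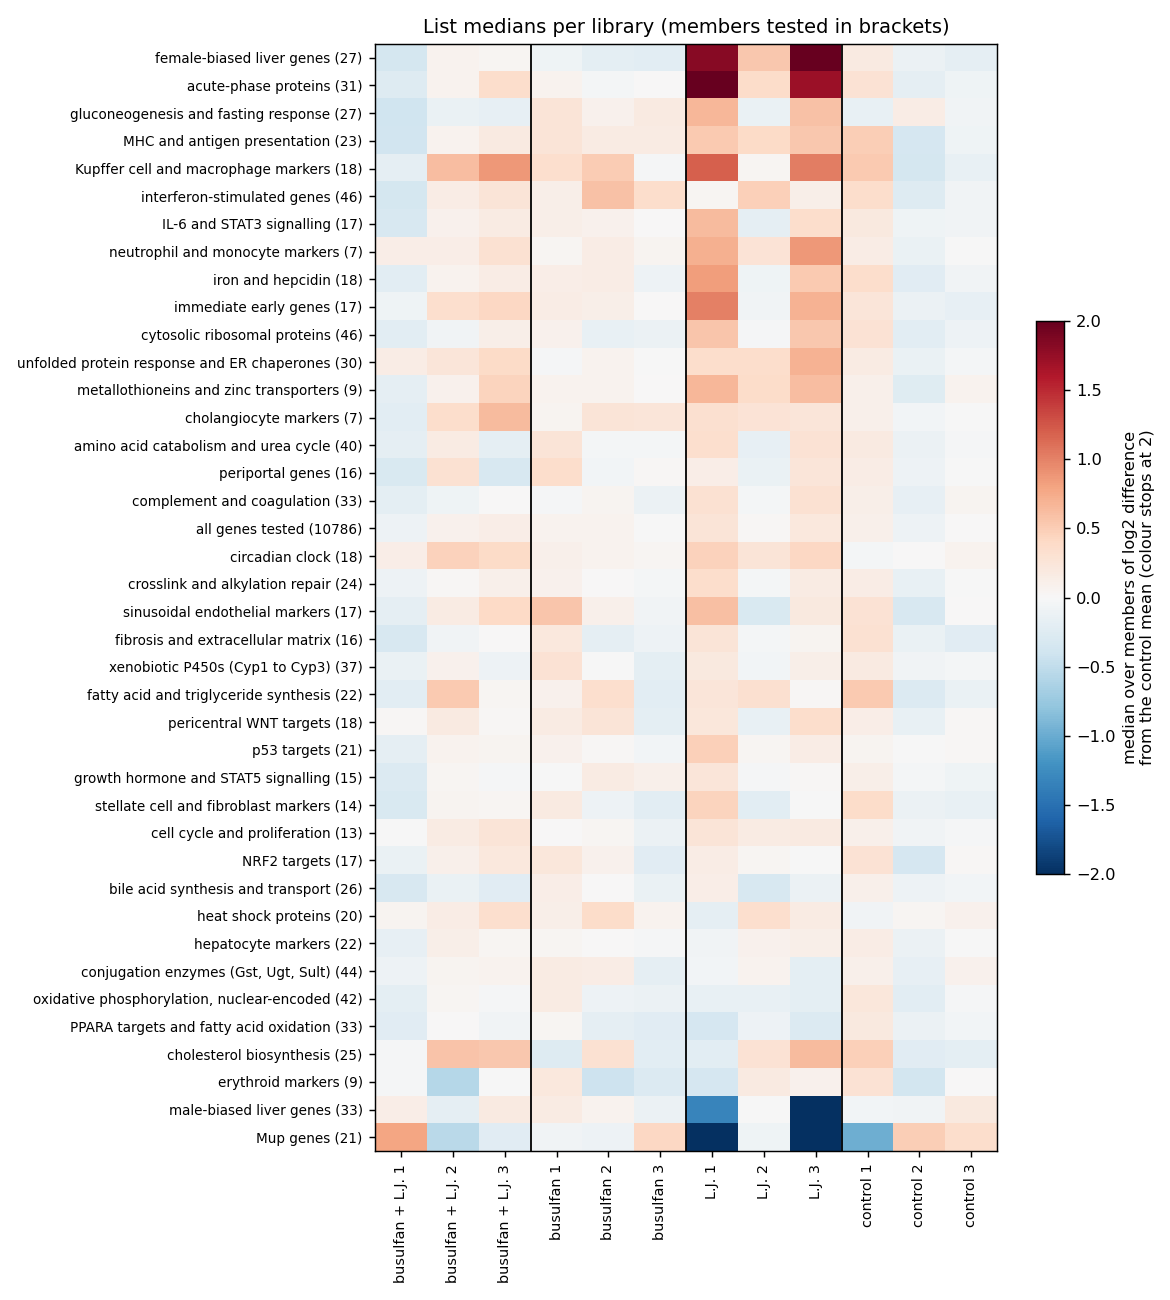
Heat map of the median log2 difference from the control mean for each gene list with at least 5 members tested (rows, members tested in brackets) in each library (columns). Among the lists drawn, L.J. replicates 1 and 3 hold the strongest colours, for acute-phase, female-biased, male-biased and Mup genes, and L.J. replicate 2 is pale in the male-biased and Mup rows.

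The medians per library show where the list values come from. Relative to the control mean, the acute-phase median was -0.27 in replicate 1, 0.07 in replicate 2 and 0.35 in replicate 3 of busulfan plus L.J., 0.07, -0.05 and 0.01 in busulfan, 2.16, 0.36 and 1.71 in L.J. and 0.29, -0.18 and -0.09 in control. The female-biased median was -0.36, 0.07 and 0.04 in busulfan plus L.J., -0.08, -0.19 and -0.20 in busulfan, 1.82, 0.53 and 2.93 in L.J. and 0.18, -0.11 and -0.18 in control. All 3 L.J. libraries lay above the other 9 in both lists, and replicate 2 was the lowest of them. For interferon-stimulated genes the medians were -0.36, 0.15 and 0.27 in busulfan plus L.J., 0.12, 0.59 and 0.35 in busulfan, 0.04, 0.47 and 0.11 in L.J. and 0.34, -0.25 and -0.07 in control, and no group stood apart.

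The share of L.J. replicates 1 and 3 was measured by leaving both out, so that L.J. replicate 2 alone stood for L.J. and was assumed to vary like the other groups. The acute-phase median was then -0.28, the female-biased -0.70, the male-biased 0.01, the Mup -0.17, the fasting -0.23, the interleukin-6 and STAT3 0.02, the Kupffer cell 0.12 and the ribosomal protein median 0.00. That of all genes was -0.02, with 55.2% of genes below 0. In contrast, leaving out L.J. replicate 2 took the acute-phase median to -1.99, the female-biased to -2.62, the male-biased to 1.90 and the Mup median to 5.74. With that library left out, limma called 84 genes higher (0.779% of all genes tested) and 215 lower (1.99%). Among them were 16 of the 20 genes above and 25 of 31 acute-phase proteins. The 20 genes had been ranked by p with the remaining libraries included, so their share among the calls is not independent of that ranking. Without L.J. replicate 3 the Mup median was 1.86 and the male-biased median 0.71. Small medians also changed sign without 1 library. That of the xenobiotic P450s was 0.01 without busulfan replicate 1 or L.J. replicate 3, and without L.J. replicate 1 those of the sinusoidal endothelial and stellate cell markers were 0.03 and 0.11. Without any single library other than L.J. replicate 2, limma called 0 genes.

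**Figure D5:**
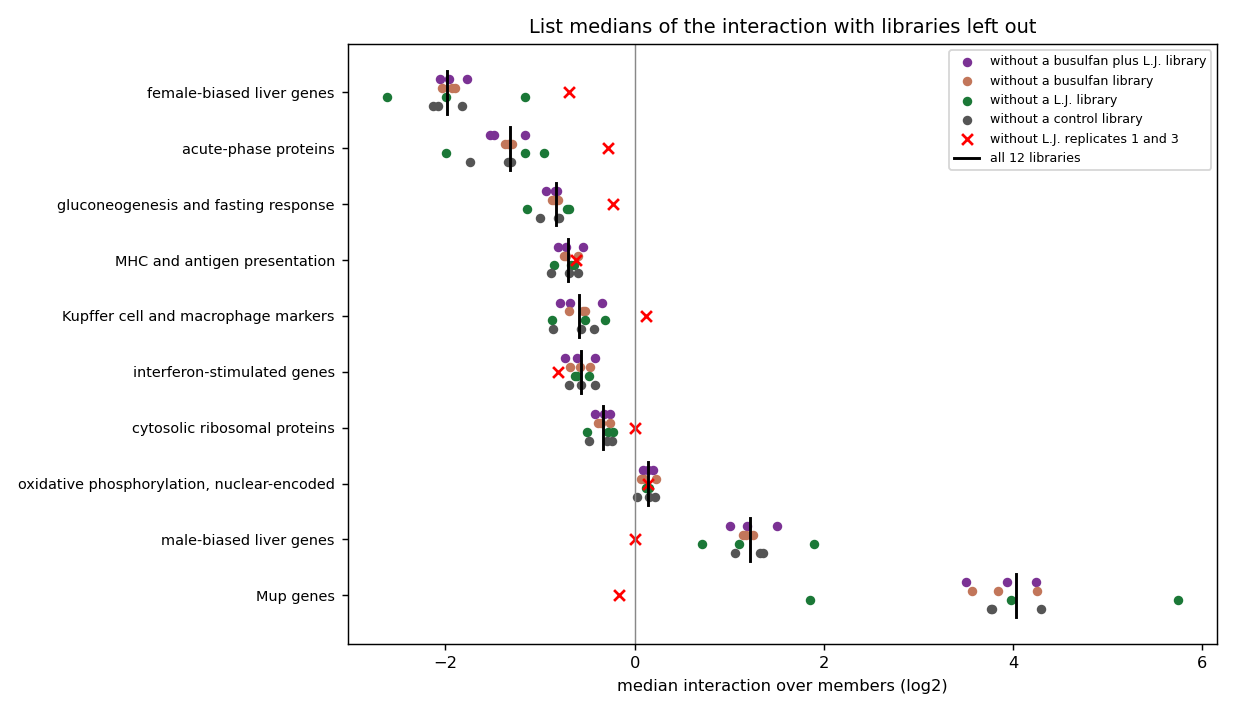
Median interaction (x axis, log2) of 10 gene lists (y axis) with all 12 libraries (bar), with each library left out in turn (points, coloured by its group) and without L.J. replicates 1 and 3 (cross). For Mup, male-biased, ribosomal and Kupffer cell lists the cross lies near 0, whereas for interferon-stimulated and MHC genes it lies at -0.81 and -0.62.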

How the data were processed

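Total RNA was sequenced in 12 libraries of mouse liver, and the values deposited by the authors are FPKM of 21004 genes, in a single table; counts were not used here. Per the submitters' processing notes, Bowtie 0.12.2 and mm10 were used. The quantifier is not given in the sources used here, so depth and counting precision are unknown and no counting interval is given. Libraries were grouped by title and description. Gene IDs were matched to RefSeq for GRCm38.p6 (20841 found, 99.2%).

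A gene was kept when 3 or more libraries reached 1 FPKM (10786 genes). At the edge of that filter, the third-highest value was 1 FPKM for Acvrl1 and Btbd10, which were kept, and 0.99 for Aebp1 and Ago4, which were not. On log2(FPKM + 1), which understates differences of low genes, 4 group means were fitted with limma 3.58.1 in R 4.3.3 (eBayes with trend, 8 residual degrees of freedom). The interaction was tested two-sided and adjusted by Benjamini-Hochberg over all genes, with a threshold of 0.05. The script was tested on simulated data.

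The genes named are those past the threshold or, with fewer than 12, the 20 with the smallest p, leaving out predicted genes. Of each list up to 4 members with the smallest p are named, and the Mup, Saa and Y-linked genes may be given as values. From 44 lists with 1023 unique members in the table, 35 were followed through 24 alternatives in pseudocount, filter, scaling, variance model, replicate block and libraries left out. Lists are described by counts and medians. The members and lists were chosen with earlier results of these data known. Comparisons that share control libraries are given side by side.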

Additional observations from a re-analysis of the deposited data

Results flagged for a closer look

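For 2 gene lists the median, on values as deposited, lay below 0 in every busulfan plus L.J. library relative to busulfan. It lay above 0 in every L.J. library relative to control, and the difference itself was not tested. The interferon-stimulated genes had a median interaction of -0.57. Their medians relative to the busulfan mean were -0.75, -0.26 and -0.12 in replicates 1, 2 and 3 of busulfan plus L.J., and relative to the control mean they were 0.04, 0.47 and 0.11 in L.J. replicates 1, 2 and 3. The medians of all genes tested in L.J. replicates 1, 2 and 3, relative to the control mean, were 0.26, 0.03 and 0.21. Beside these, the interferon-stimulated median was lower in L.J. replicates 1 and 3 and higher only in L.J. replicate 2. The MHC and antigen presentation genes had a median interaction of -0.70. Their medians were -0.61, -0.08 and -0.00145 in the busulfan plus L.J. replicates relative to busulfan, and 0.52, 0.38 and 0.54 in the L.J. replicates relative to control. The smallest of these values lay near 0, and busulfan plus L.J. replicate 1 held the lowest value in both lists.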

How the results depend on the processing

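No gene passed in either direction in 19 of the 24 alternatives. Under median scaling and without the Mup genes 1 gene was higher, Ndrg1 in both. Library weights gave 210 higher and 652 lower, from weights that had not reached their convergence tolerance and ran from 0.250 for L.J. replicate 2 to 3.74 for busulfan plus L.J. replicate 2. Leaving out L.J. replicates 1 and 3 together gave 2 lower, Sult3a2 (-3.94, limma adjusted p 0.0315) and A1bg (-2.38, limma adjusted p 0.0213), both named after their values were seen, and reversed Mup3 (-0.17) and Mup2 (-0.26). Leaving out 1 library in turn gave 0 to 84 higher and 0 to 215 lower, the highest counts both without L.J. replicate 2. The cause was not tested.

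With the replicate number as a block, limma called 0 genes higher and 0 lower, with 109 and 598 at an unadjusted p under 0.05. Of 18 correlations between same-numbered libraries 7 were over 0.1 (range -0.286 to 0.399). All 3 were over it in 1 of 6 pairs of groups, busulfan and control (0.399, 0.157 and 0.110), so the numbers were not taken to pair the 4 groups, and 4 of 12 libraries correlated best with their own number.

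Of 83 named genes, 77 passed with library weights and 57 without L.J. replicate 2. Over all genes tested, 1.95% were called higher and 6.04% lower with library weights, and 0.779% and 1.99% without L.J. replicate 2. Most named genes were picked by a small interaction p in these data, so a larger share among them was built in. The limits are the 3 libraries per group, the spread inside the L.J. group, and FPKM without counts, which give no measure of depth.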

Other observations

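Further lists are given here with their medians, beside -0.17 for all genes. Immediate early genes, transcription factors that respond within minutes to a stimulus, had a median interaction of -0.42, with 14 of 17 members below 0 and a median L.J. difference of 0.15 with busulfan and 0.57 without it. Periportal genes, expressed by hepatocytes around the portal vein, had a median of -0.23 with 10 of 16 below 0, and pericentral WNT targets, expressed around the central vein, one of -0.12 with 13 of 18 below 0. Fatty acid and triglyceride synthesis genes had a median of -0.12 over 22 members, and fibrosis and extracellular matrix genes one of -0.15 over 16. NRF2 targets, which answer oxidative stress, were at -0.04 with 9 of 17 below 0, and heat shock proteins were split 10 to 10. Only 13 of 32 cell cycle and proliferation genes reached the level to be measured, with a median of -0.07. Cholangiocyte markers had a median of -0.26 over 7 members and adipocyte markers one of 0.09 over 3. The median of the 7 neutrophil and monocyte markers was -0.49, that of 3 B cell and plasma cell markers was -0.39 and that of 3 T and NK cell markers was -0.86. The last is the value of Gzmb, which reached 1 FPKM only in the L.J. libraries, and is no measure of the whole list.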
